A study of Mus musculus with 20 samples.

Results

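The effect of the ketogenic diet in male cortex was read from the 11 libraries whose labels carry the male code, of 20 libraries in the series. Of these, 6 came from males fed the ketogenic diet (KD) and 5 from males fed the control diet (CD), which the labels call SD, with 1 library per mouse. Every mouse, the controls included, was an APOE4 knock-in (APOE4KI), in which the human allele stands in for mouse Apoe, so diet was the variable and no other genotype was compared. Both diets were given in equal calories for a period of 12 months that began at an age of 10 months, and at 22 months a piece of cortex was taken from each mouse after a fast and frozen. The library numbers fall into 2 series, S43 with 3 CD and 3 KD males and S47 with 2 CD and 3 KD males, and the series was a term in the fit. The males are named by their animal codes: CD males E51, E58 and E66 (S43) and E251 and E264 (S47), and KD males E53, E59 and E64 (S43) and E213, E256 and E254 (S47).

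On a ketogenic diet, fat takes the place of most carbohydrate, and the liver turns fatty acids into ketone bodies. The brain takes these up through monocarboxylate transporters and oxidises them in mitochondria, where 3-oxoacid CoA transferase (Oxct1) and 3-hydroxybutyrate dehydrogenase (Bdh1) act. Cortex is a mixture of layered excitatory neurons, inhibitory interneurons, astrocytes, oligodendrocytes, microglia and vessels, and it lies against meninges, hippocampus and striatum, with choroid plexus in the ventricle nearby. A bulk library counts all of them together, so fewer cells of a type and less RNA per cell cannot be told apart in any value given here.

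Total counts per library were 23068391 to 29109990 in S43 and 14740328 to 17401657 in S47. All 11 libraries had male levels of Xist (at most 7.82 CPM, counts per 1e6 counts of the library, against at least 319 in the females) and of the Y-linked gene Ddx3y (156 to 250.5 CPM). The cortical excitatory marker Slc17a7 was between 285.5 and 579.4 normalised CPM in all of them. The haemoglobin genes Hba-a1 and Hbb-b1 were at exactly 0 in all 11, so blood content was not assessed from them, and the blood marker Alas2 was at 3.95 to 9.82. Normalised CPM are CPM after upper-quartile scaling of the 11 male libraries, and all levels from here on are in that unit unless stated. No gene's values are compared with another gene's, since the unit does not correct for gene length. KD males E59 and E64 stood apart from the other libraries, as described below.

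No gene passed the thresholds of a false discovery rate (FDR) of 0.1 and a 1.5-fold change between KD and CD males (0 of 15260 genes tested, or 0%, by the quasi-likelihood test of edgeR, with p-values adjusted after Benjamini and Hochberg). The smallest adjusted p was 0.9996. Every gene named below that was tested in this comparison has an adjusted p there at or above that value, and no level is called changed. An unadjusted p under 0.05 was reached by 686 genes (4.5%), of which 454 were higher on KD (2.98%) and 232 lower (1.52%). Over all genes tested, 7507 were higher on KD and 7753 lower, with a median log2 fold change of -0.0024. The likelihood ratio test of edgeR called 10 genes, among them Gnb4, Ankfn1, Ccdc27, Ecel1, Gpr101, Igfbp4, Mdga1, Ndst4 and Rgs13, and DESeq2 called 5 of the 10, Gnb4, Ankfn1, Igfbp4 and Mdga1 included. The 6 KD libraries were all above the 5 CD libraries for 15 genes (0.0983% of those tested) and all below them for 22 (0.144%).

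Gnb4, a beta subunit of heterotrimeric G proteins (chromosome 3, 32580332 to 32616585 in GRCm38), had the smallest p of the genes higher on KD. It was at 18.1, 20.9 and 16.3 normalised CPM in CD males E51, E58 and E66 and at 24.5 and 28.3 in E251 and E264, against a lowest value of 30.9, a median of 36.0 and a highest of 61.6 in KD males. Every KD male was above every CD male, with E254 the highest, and the log2 fold change was 0.90 ± 0.18 (SE). Leaving out each library in turn gave values from 0.78 without E59 or E254 to 0.99 without E213, and the difference was 1.06 within S43 and 0.71 within S47.

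Cpne4 encodes a copine, one of a family of calcium-dependent phospholipid-binding proteins (chromosome 9, 104547286 to 105034544). It was at 56.2, 51.5, 56.9, 74.9 and 72.1 normalised CPM in CD males E51, E58, E66, E251 and E264, and at 74.9 to 119 in KD males with a median of 93.9. The groups met at 74.9, where CD male E251 and KD male E213 lay side by side, and the log2 fold change was 0.56 ± 0.12. Ankfn1, an ankyrin-repeat and fibronectin-domain gene (chromosome 11, 89390223 to 89777653), was at 2.15, 1.70, 1.39, 1.91 and 2.70 in the CD males in the same order and at 2.72 to 6.36 in the KD males, with a median of 3.86. KD male E53 and CD male E264 were nearly level, and all other KD males were clearly higher, for a log2 fold change of 1.07 ± 0.23. Rgs13, a regulator that shortens G-protein signalling (chromosome 1, 144138654 to 144177372), was at 0.338, 0.407, 0.338, 0.574 and 0.574 in the CD males and at 0.670 to 2.13 in the KD males, with a median of 1.14. These are low levels, highest in E64, and the groups did not overlap (log2 fold change 1.54 ± 0.33).

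The other genes of smallest p that were higher on KD included Mdga1 (1.5 ± 0.35), an adhesion protein that binds neuroligins, Ecel1 (3.08 ± 0.72), a neuronal membrane peptidase, Papss2 (0.46 ± 0.11), which makes the sulfate donor of the cell, and Ndst4 (2.77 ± 0.70), a heparan sulfate sulfotransferase. Epha3 (0.78 ± 0.20) is an ephrin receptor, Rps6ka6 (0.58 ± 0.15) a ribosomal S6 kinase, and Crispld1 (0.47 ± 0.12) a secreted protein. For the steepest of these the levels were low in most libraries and high in a few. Ecel1 was at 0.549, 0.713, 0.380, 0.255 and 0.574 normalised CPM in the 5 CD males, and at 0.812 in E53, 7.22 in E59, 13.6 in E64, 0.802 in E213, 0.701 in E256 and 2.96 in E254. Ndst4 had the same 3 libraries at the top. It was at 32.5 in E64, 30.7 in E254 and 17.9 in E59, and at 1.62 in KD male E53, below CD male E51 at 6.12.

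Among genes lower on KD, Igfbp4, a secreted binding protein for insulin-like growth factors (chromosome 11, 99041244 to 99054392), had the smallest p. It was at 90.3, 102 and 105 normalised CPM in CD males E51, E58 and E66 and at 50.8 and 55.6 in E251 and E264, against 28.3 to 61.5 in KD males with a median of 45.0. The 3 S43 controls were far above all others, whereas the 2 S47 controls lay inside the KD range. The log2 fold change was -0.71 ± 0.15, with -0.90 within S43 and -0.45 within S47. Ccdc27, a coiled-coil gene of unclear role (chromosome 4, 154026639 to 154042677), was at 1.44, 2.24, 1.60, 1.02 and 0.747 in the CD males and at 0.140 to 1.02 in the KD males, with a median of 0.453. E53 was the KD male that overlapped the controls, and the log2 fold change was -1.43 ± 0.33. Snx24, a sorting nexin, was at 21.8, 22.8, 25.7, 18.7 and 22.3 in the CD males and at 14.8 to 18.4 in the KD males, with a median of 16.6 (-0.41 ± 0.10). Lrrc38, an auxiliary subunit of large-conductance potassium channels (chromosome 4, 143349757 to 143371032), was at 3.04, 2.95, 2.53, 2.42 and 1.95 in the CD males and at 0.556 to 1.94 in the KD males, with a median of 1.09 (-1.09 ± 0.26). For both genes all KD males were below all CD males, the closest pair for Lrrc38 being KD male E53 at 1.94 and CD male E264 at 1.95.

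**Figure D1:**
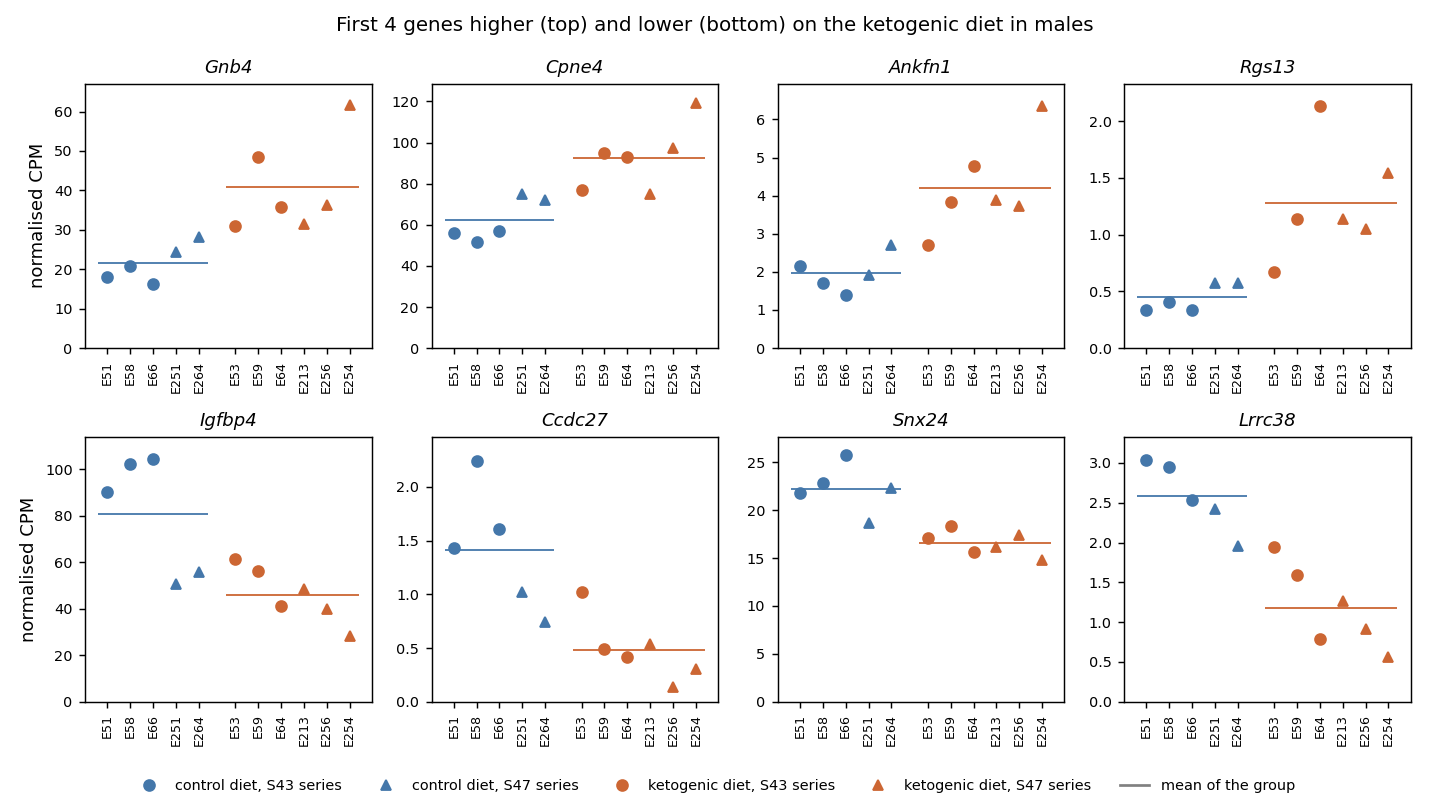
Level of the first 4 genes higher (top row) and lower (bottom row) on KD in normalised CPM on linear axes, 1 point per male library, with colour for diet, shape for library series and a line at each group mean. For Gnb4, Ankfn1 and Rgs13 the 6 KD points all lie above the 5 CD points, and for Snx24 and Lrrc38 all below, and E254 is the highest for Gnb4, Cpne4 and Ankfn1.

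Of the remaining lower genes, Kcns3, a silent potassium channel subunit that modifies other channels, was at 14.6, 16.6, 18.9, 15.4 and 14.9 normalised CPM in the CD males and between 11.4 and 12.8 in all KD males, with a median of 12.1. The KD libraries lay close together and below all controls, and the log2 fold change was -0.40 ± 0.10. Kcnj3, the GIRK1 subunit of G-protein-gated potassium channels (-0.30 ± 0.08), Sulf2, which removes sulfate groups from heparan sulfate (-0.46 ± 0.12), and Ptpn3, a tyrosine phosphatase (-0.37 ± 0.10), were also among them. The list also held Agxt2l1, the ethanolamine-phosphate lyase of astrocytes (-0.53 ± 0.15), Pvrl4, the adhesion molecule nectin-4 (-0.49 ± 0.14), the transcriptional cofactor Zfpm2 (-0.57 ± 0.17) and the long noncoding RNA 4833412C05Rik (-0.90 ± 0.26). Agxt2l1 and 4833412C05Rik were lower in every KD male than in every CD male, as was Kcns3. All 12 genes higher and all 12 lower had an unadjusted p under 0.05 in each of the 11 fits that left out 1 library. Their direction was used in choosing them, so these counts describe them and test nothing.

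A few animals held most of the extremes. Choosing genes by direction places a KD library at the top of the higher genes and at the bottom of the lower ones, so each share is given beside the same share among all tested genes whose extreme library was of the same diet, as a description. KD male E64 was the highest library for 239 of the 454 genes higher on KD (52.6%, beside 34.3%) and the lowest for 103 of the 232 genes lower on KD (44.4%, beside 29.2%). E254 was the highest for 107 (23.6%, beside 16.2%) and the lowest for 70 (30.2%, beside 18.5%). Both animals were thus at the extremes of these genes in a larger share than of all genes. Among the controls, E66 was the lowest for 159 of the higher genes (35%, beside 34.2%), nearly its share of all genes, and the highest for 84 of the lower genes (36.2%, beside 28.9%). KD male E53 was the highest for 3 of the 454 (0.661%, beside 5.64%) and the lowest for 9 of the 232 (3.88%, beside 5.09%). Of the 12 first genes higher on KD, 6 were highest in E254 and 5 in E64, and of the 12 first lower genes 6 were lowest in E254.

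Leaving out E64 left 371 genes at an unadjusted p under 0.05, with 332 of the 686 among them, and leaving out E58 left 391, with 353 of the 686. Without E213 there were 978. Only 208 of the 686 were at that p in all 11 such fits, Gnb4, Igfbp4, Mdga1 and Nos1 included. Within S43 alone 655 genes reached it, and within S47 alone 116.

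A count of genes for which 1 library stood more than 2-fold from the nearest other one showed where the single animals differed. Over 14013 genes with a mean of at least 1 CPM, E59 was the highest by that margin for 118 genes and the lowest for 14. E64 was the highest for 65 and the lowest for 73. E213 was the highest for 14, and CD male E66 was the lowest for 15. Each of the other 7 libraries stood out for at most 11 genes in both directions together. At this margin E59 stood out mostly as the highest library, and E64 about as often as the highest and as the lowest.

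**Figure D2:**
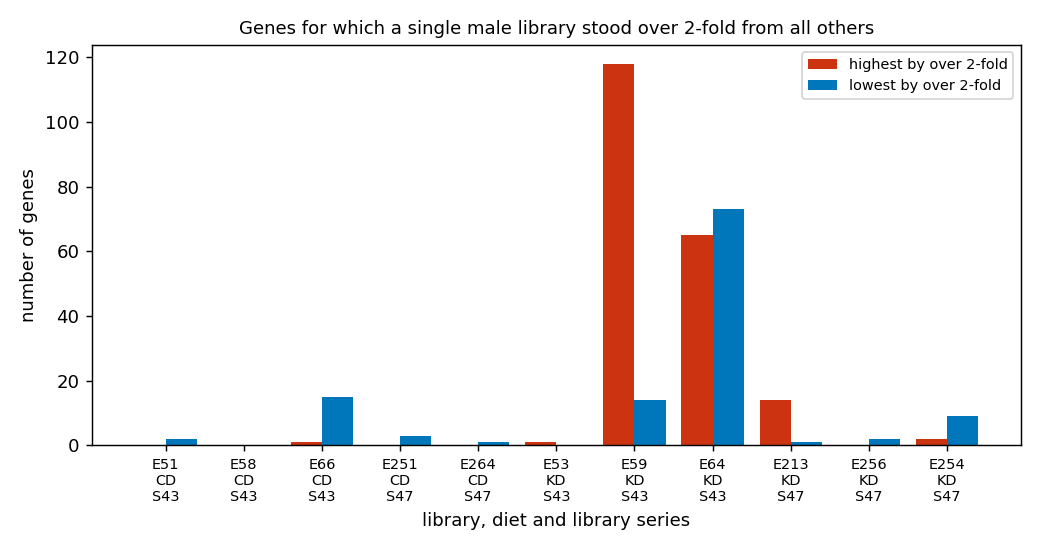
Number of genes (of 14013) for which a single male library was the highest (red) or the lowest (blue) by more than 2-fold over the next library. E59 has 118 and 14, E64 has 65 and 73, and every CD library except E66 has at most 3.

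Gene lists for 49 programmes were read next, each as the median log2 fold change of its tested members and as a score per library, which is the mean z-score of the members' log2 CPM. They held 1172 distinct tested genes, of which 79 were at an unadjusted p under 0.05 (6.74%, against 4.5% of all genes), 55 higher on KD and 24 lower. Of those 55, 31 were highest in E64 and 13 in E59. Among all 454 genes higher on KD at that p, E64 was the highest for 52.6% and E59 for 16.7%. The median lay between -0.1 and 0.1 for 36 of the 49 lists, and for no list were the scores of KD and CD males separate. E64 had the highest score in 17 lists and E59 in 10, while E256 had the lowest in 12 and E254 in 8. The sign of the median was the same in every fit that left out 1 library for 23 lists, and within both series for 22.

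**Figure D3:**
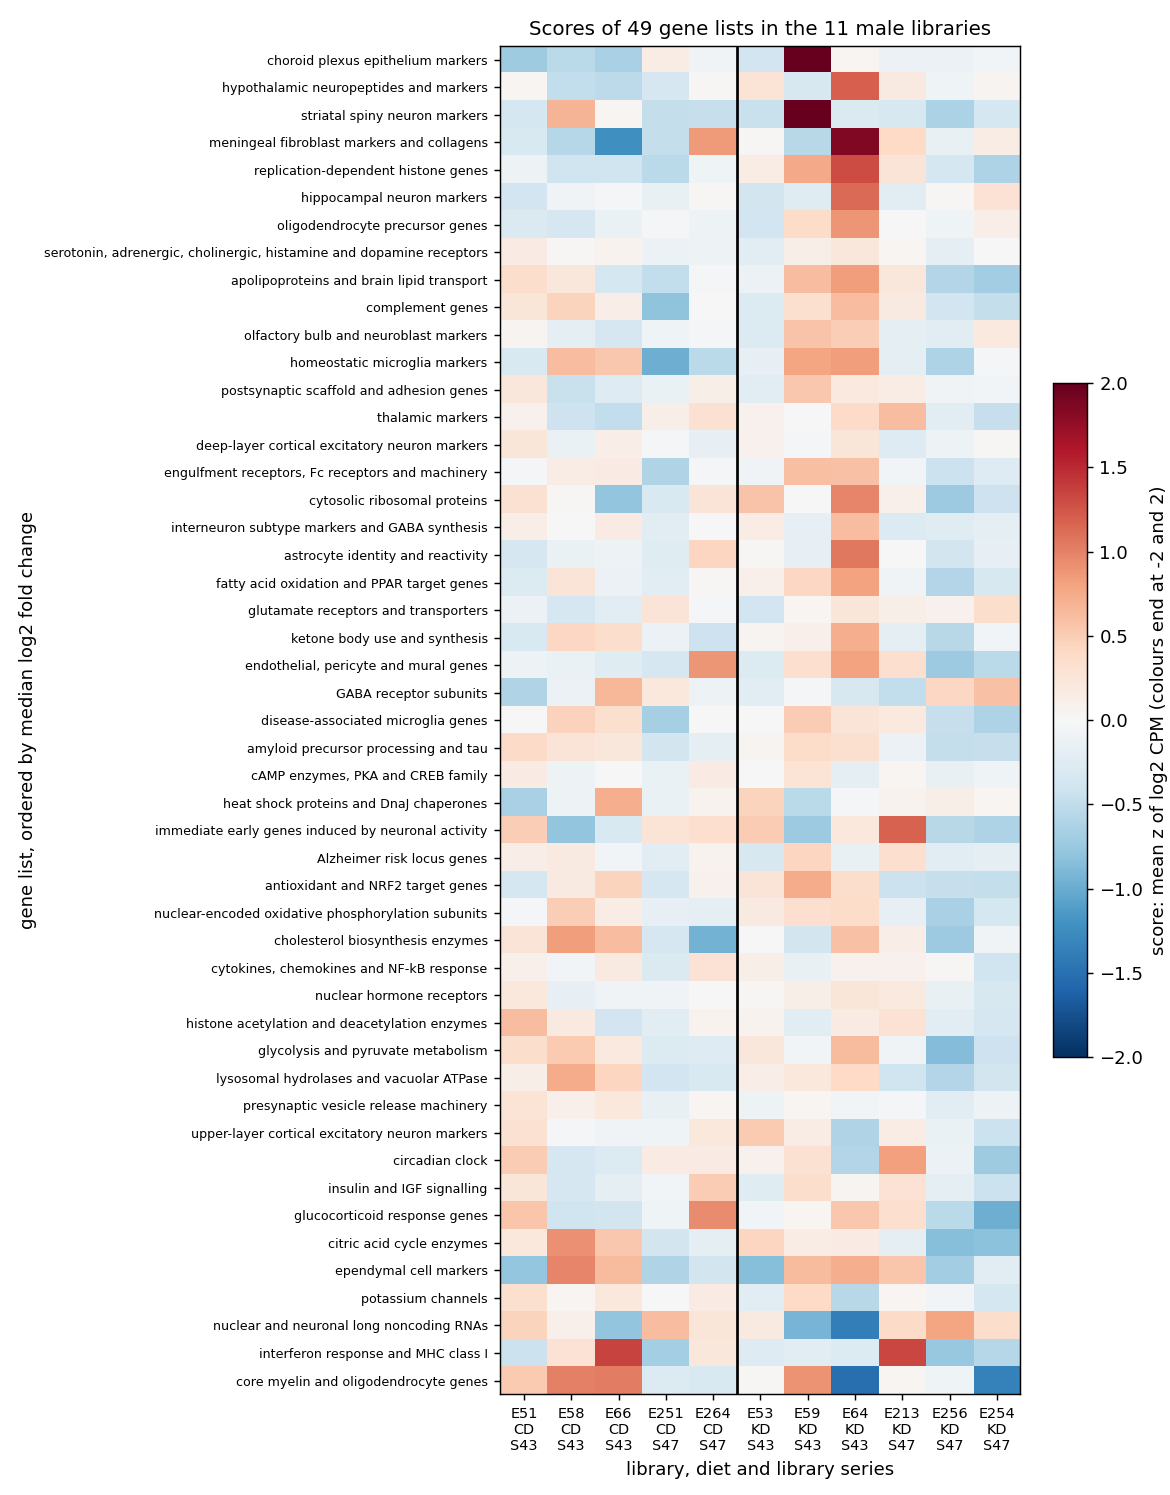
Score of each of 49 gene lists (rows, ordered by their median log2 fold change on KD) in the 11 male libraries (columns, CD left and KD right of the black line), as a mean z-score of log2 CPM. Cells of strong colour include those of E59 for choroid plexus (2.45) and striatal (2.60) markers, of E64 for meningeal (1.85) and hippocampal (1.13) markers, of E64 (-1.50) and E254 (-1.34) for myelin genes, and of E66 (1.35) and E213 (1.33) for interferon genes.

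Genes of ketone body use, the programme most directly tied to the diet, showed no common direction. Of 13 tested genes of ketone body use and synthesis, 7 were higher on KD and 6 lower, none at an unadjusted p under 0.05, with a median log2 fold change of 0.036. Oxct1, the enzyme that activates acetoacetate in the brain, was at 493, 561, 624, 615 and 549.9 normalised CPM in CD males E51, E58, E66, E251 and E264 and at 492 to 683 in KD males, with a median of 587. Bdh1, which oxidises 3-hydroxybutyrate, was at 31.2 to 44.1 in CD and 29.4 to 44.0 in KD males. For both enzymes the ranges of the diets were almost the same.

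Other energy pathways differed as little. Fatty acid oxidation and PPAR target genes were split 19 higher and 16 lower (median 0.046), glycolysis 15 and 18 (-0.017), and oxidative phosphorylation subunits 38 and 38 (-0.001). Of 14 enzymes of the citric acid cycle 10 were lower, with a median of -0.055 that stayed below 0 in each fit without 1 library. The 1 gene of these 4 lists at an unadjusted p under 0.05 was Cd36, the fatty acid and lipoprotein scavenger receptor, with a log2 fold change of 1.53 ± 0.55. Cd36 was at 0.634 to 2.12 in CD males, and at 8.35 in E64 and 7.04 in E254 against 1.27 to 2.01 in the other KD males. Without E64 its log2 fold change was 0.81.

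Protein synthesis and sterol genes were read in the same way. Of 73 cytosolic ribosomal protein genes 54 were higher on KD, with a median of only 0.060. E64 was the highest library for 43 of the 73, and the median was 0.167 within S43 and -0.057 within S47. Cholesterol synthesis enzymes were split 12 and 13 (median -0.002). Of the 2 at an unadjusted p under 0.05 (8%, against 4.5% of all genes), both higher, 1 was Dhcr7, the last step of cholesterol synthesis (0.23 ± 0.10). Heat shock genes (16 higher, 13 lower) held Hspa5, the chaperone BiP of the endoplasmic reticulum (0.21 ± 0.10), and antioxidant NRF2 targets were split 12 and 12.

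Of 28 insulin and IGF signalling genes, 11 were higher and 17 lower, with 2 at an unadjusted p under 0.05 in each direction (14.3%, against 4.5% of all genes). Igfbp4 was described above. Irs4, an adaptor of the insulin receptor, was at 0.204 to 0.510 normalised CPM in CD males and 0.351 to 1.37 in KD males (1.16 ± 0.41), a low level in every library. Igfbp2, another IGF-binding protein, was at 5.87 to 12.9 in CD males and 7.15 to 30.9 in KD males (0.77 ± 0.31). Its highest values were 30.9 in E64 and 26.9 in E59, the next one being 12.9 in CD male E264.

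Myelin genes were lower on KD in nearly every member and in few animals. Of 24 core myelin and oligodendrocyte genes 23 were lower, with a median log2 fold change of -0.35, and none had an unadjusted p under 0.05. Mog, a protein of the outer myelin sheath, was at 64.7, 84.8, 83.4, 51.8 and 46.6 normalised CPM in CD males E51, E58, E66, E251 and E264 and at 18.4 to 73.7 in KD males, with a median of 45.2. E64 (18.4) and E254 (27.5) were far below all controls, E213 (43.1) was just below them, and the other 3 KD males lay inside the CD range. Mbp, the myelin basic protein, was at 309 in E254 and 416 in E64 against 571 to 953 elsewhere. E64 was the lowest library for 13 of the 24 genes and E254 for 10. The median was -0.17 without E64, -0.50 without E59, -0.60 within S43 and -0.04 within S47, and the score was highest in CD males E66 and E58 and in KD male E59. Oligodendrocyte precursor genes, in contrast, were higher in 12 of 16 (median 0.13), with E64 the highest library for 8.

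Astrocyte genes were higher in 20 of 28, with a median of 0.047, and 2 were at an unadjusted p under 0.05 (7.14%, against 4.5% of all genes). Aqp4, the water channel of astrocyte endfeet, was at 123, 149.8, 181, 162 and 167 normalised CPM in CD males E51, E58, E66, E251 and E264 and at 172 to 249.1 in KD males, with a median of 201. Only E59 of the KD males was below a control, and the log2 fold change was 0.41 ± 0.12, with 0.43 within S43 and 0.38 within S47. It was 0.32 when E64 was left out. Cd44, the hyaluronan receptor of reactive and fibrous astrocytes, was at 2.03 to 15.2 in CD and 3.46 to 23.5 in KD males (0.99 ± 0.44), and the S47 controls, at 15.2 and 8.16, were above the S43 controls. The astrocyte score was 1.05 in E64 and at most 0.43 in the other libraries.

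Homeostatic microglia genes were higher on KD in 20 of 22, by a median of 0.091, and none reached an unadjusted p of 0.05. Their score was from -0.97 in E251 to 0.62 in E58 among the controls and from -0.62 in E256 to 0.84 in E64 among KD males, so the diets overlapped throughout. Of 25 disease-associated microglia genes 14 were higher, among them Lpl, the lipoprotein lipase (0.62 ± 0.23), Timp2, a metalloproteinase inhibitor (0.48 ± 0.20), and Cd68, a lysosomal glycoprotein of phagocytes (0.36 ± 0.16). Lpl was highest in E59 at 54.5 against 15 to 21.8 in CD males, and Timp2 was at 279 in E64 and 225 in E254 against at most 157 in the other 9. Lpl and Timp2 are also made by cells other than microglia. Engulfment genes were higher in 22 of 32 (median 0.062) and lysosomal genes lower in 25 of 41 (-0.027).

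Complement genes were split 10 and 8, with the 2 proteases that start the classical cascade both lower. C1s was at 2.28, 1.94, 2.45, 1.98 and 2.47 normalised CPM in CD males E51, E58, E66, E251 and E264, and at 1.05 to 1.76 in KD males with a median of 1.57. The groups did not overlap, and the log2 fold change was -0.55 ± 0.19. C1ra was at 6.72, 7.33 and 9.03 in the S43 controls and at 2.81 and 4.25 in the S47 controls, against 1.75 to 4.41 in KD males (-0.82 ± 0.30). For C1ra the S43 controls alone lay above the KD males, and the difference was -1.26 within S43 and -0.17 within S47.

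Interferon response and MHC class I genes were lower on KD in 24 of 30 (median -0.12), and the list was held at its top by 1 animal of each diet. CD male E66 was the highest library for 14 of the 30 genes and KD male E213 for 13, with scores of 1.35 and 1.33 against at most 0.29 in the other 9. The median was 0.042 without E66 and -0.30 without E213, and it was -0.30 within S43 and 0.15 within S47. Usp18, the protease that removes ISG15 and damps interferon signalling, was at 6.33 in E66 and at 1.37 to 2.58 in the other 10 libraries (-0.80 ± 0.35). Gbp2, an interferon-induced GTPase, was at 18.0 in E213 and at most 9.24 elsewhere. Cytokine, chemokine and NF-kB genes were split 10 and 12 (median -0.004).

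The lists with the largest medians on KD were markers of brain tissue outside cortex and of the meninges. Choroid plexus markers had a median log2 fold change of 1.34 (14 of 14 tested higher) and hypothalamic markers 1.19 (6 of 8 higher). The median was 1.05 for striatal markers (22 of 22 higher) and 0.58 for meningeal markers (22 of 23 higher). At an unadjusted p under 0.05 were 4 choroid plexus (28.6%), 5 hypothalamic (62.5%), 1 striatal (4.55%) and 5 meningeal markers (21.7%), against 4.5% of all genes. Tested were 14 of 20 listed choroid plexus genes, 8 of 18 hypothalamic, 22 of 24 striatal and 23 of 23 meningeal genes. The others were too low to be tested, and a gene could be kept by its level in KD libraries alone. These shares therefore describe the members kept and test nothing. Each median was larger within S43 (2.73, 1.74, 1.79 and 1.31) than within S47 (-0.11, 0.39, 0.14 and -0.12). Their part in the results above was not tested.

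**Figure D4:**
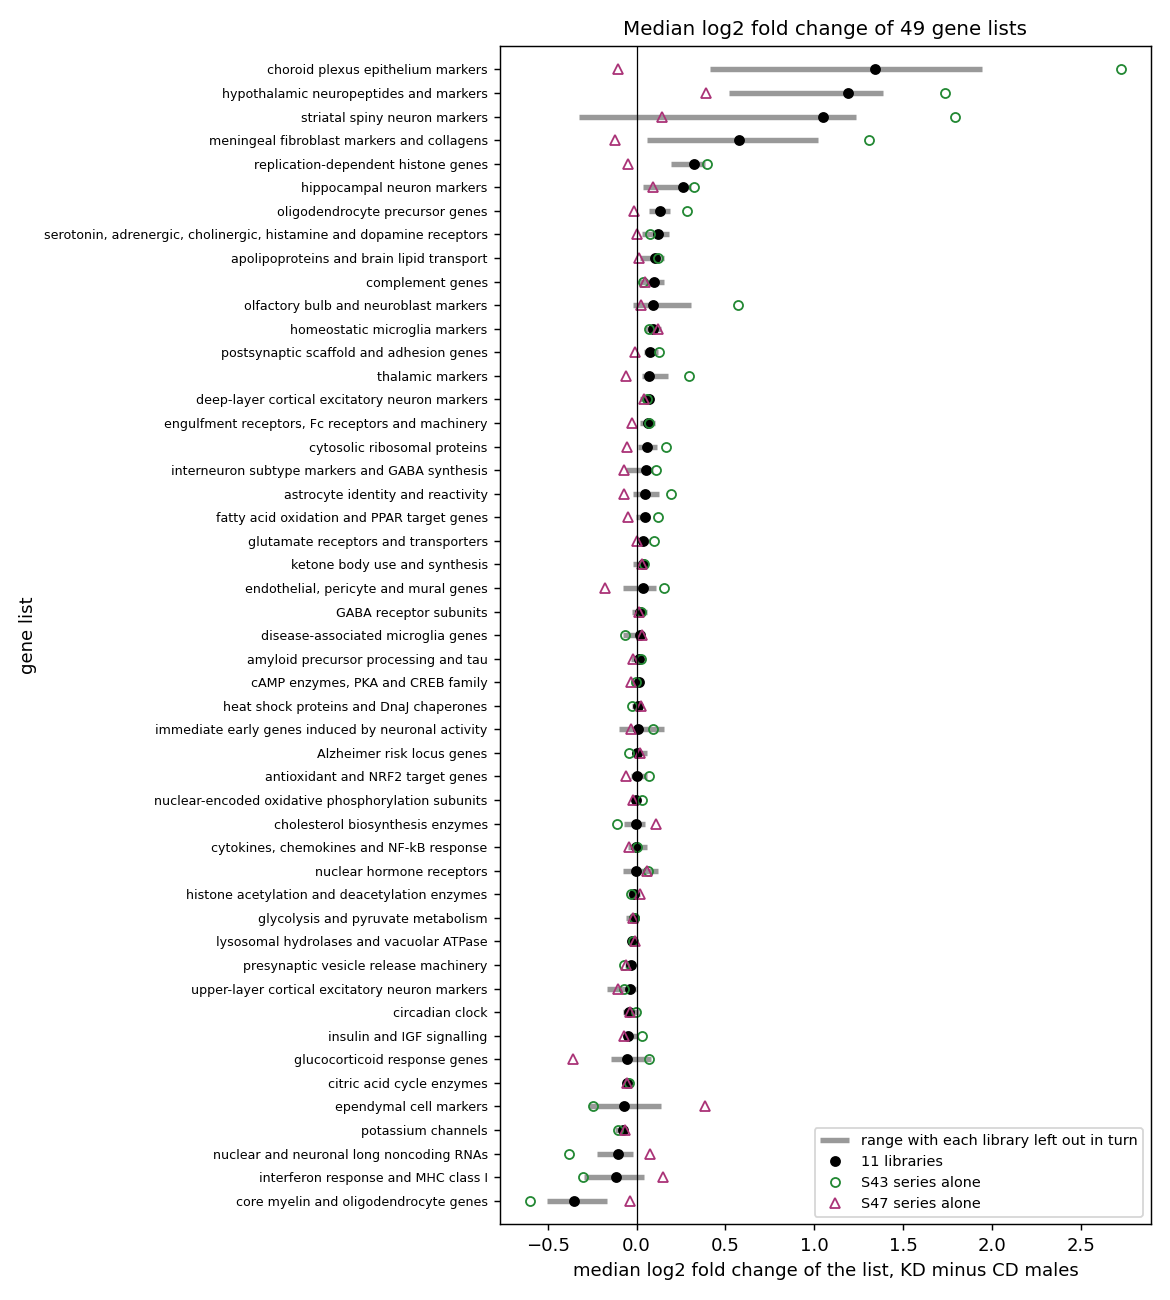
Median log2 fold change (KD minus CD males) of 49 gene lists, with the value over 11 libraries (black), the range with each library left out in turn (grey bar), and each library series alone (green circles S43, magenta triangles S47). The bars of choroid plexus, hypothalamic, striatal and meningeal markers are the widest, and most other lists lie within 0.1 of 0.

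E59 carried the striatal and choroid plexus markers. It was the highest library for all 22 striatal genes tested and for 13 of the 14 choroid plexus genes. The striatal median was -0.33 without it and the choroid median 0.41. Without this animal the striatal median thus lay on the other side of 0. Ttr, the transthyretin of choroid plexus epithelium, was at 2182 normalised CPM in E59 and at 7.85 to 41.8 in the other 10 libraries. Kl (Klotho, 63.4) and Sostdc1, a BMP and Wnt antagonist (12.0), were also far above the other libraries there, the next values being 8.56 and 1.65. Adora2a, the adenosine receptor of indirect-pathway neurons, was at 72.1 in E59, 8.39 in CD male E58 and at most 2.24 in the rest. E58 was thus the second highest for this gene, and its striatal score of 0.68 was the highest among controls. Slc5a7, the choline transporter, was at 36.9 in E59 against at most 4.04.

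E64 carried the meningeal, hippocampal and hypothalamic markers. It was the highest library for 20 of 23 meningeal, 12 of 19 hippocampal and 6 of 8 hypothalamic genes, and without it their medians were 0.06, 0.04 and 0.52. Dcn, the proteoglycan decorin of fibroblasts, was at 13.2, 12.5, 10.6, 28.4 and 60.3 normalised CPM in CD males E51, E58, E66, E251 and E264, and at 223 in E64, 138 in E254 and 12.4 to 38.1 in the other KD males. Col1a1, a fibrillar collagen chain (1.30 ± 0.54), was at 5.91 in E64 and at most 1.34 elsewhere, and Col1a2 at 35.2 and at most 14.5. CD male E66 was the lowest library for 13 of the 23 meningeal genes. E64 and E66 were thus at opposite ends of this list, with scores of 1.85 and -1.23.

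Fibcd1, a chitin-binding membrane protein (chromosome 2, 31813290 to 31846005), was at 3.38, 2.89, 2.28, 2.81 and 2.47 normalised CPM in the 5 CD males in the same order, and at 75.8 in E64, 10.4 in E254, 6.87 in E59 and 2.24 to 3.88 in the other KD males. Dsp, the desmosomal protein desmoplakin, which marks dentate granule cells, was at 5.05 in E64 and 4.90 in E59 and at most 0.953 in the other 9 libraries (1.89 ± 0.56). The 2 genes shared E64 as the highest library but not the second highest. Bok, a BCL2 family member in the same list, was lower (-0.42 ± 0.16).

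Hypothalamic markers were high in E64 without the peptides that define hypothalamic nuclei. Trh, thyrotropin-releasing hormone, was at 23.9 normalised CPM in E64, 3.77 in E254, 2.51 in E59 and at most 1.22 in the other 8 libraries. Baiap3, a regulator of dense-core vesicle trafficking, was at 16.7 in E64 and at most 3.52 elsewhere. Nnat, neuronatin, was at 292 in E64 and 115 in E254 against at most 65.0, and Nts, neurotensin, at 8.38 in E64 and 7.64 in E256. E64 was thus the highest library for all 4 genes, and E254 the second highest for all but Nts. Avp, Oxt, Pmch and Hcrt, the genes of vasopressin, oxytocin, melanin-concentrating hormone and orexin, were at most 0.319 in all 11 libraries. Gpr101, an orphan receptor on the X chromosome (57496668 to 57503757), was at 48.0 in E64, 16.8 in E254, 6.17 in E256 and 3.99 in E59, and at most 2.17 in the other 7.

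The cortical layer scores of E64 differed, the upper-layer score being the lowest of the 11 libraries (-0.60). Its deep-layer score (0.24) was the highest only by a narrow margin, CD male E51 also being at 0.24. E64 was the highest library for 3 of the 20 deep-layer genes and the lowest for 5. Tbr1, a transcription factor of deep-layer neurons, was at 76.7, 68.5, 88.0, 89.2 and 84.4 normalised CPM in CD males E51, E58, E66, E251 and E264, and at 36.9 in E64 and 64.9 to 102 in the other KD males. E64 stood below the whole range of the other libraries, and Slc17a7, a general marker of cortical and hippocampal excitatory neurons, was at its highest there (579.4). Xirp2 (0.893, others at least 4.98) and the noncoding RNA Gm10635 (0.241, others at least 1.16) were, with the potassium channel gene Kcnh5, the genes of at least 5 CPM on average for which E64 was lowest by the widest margins.

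**Figure D5:**
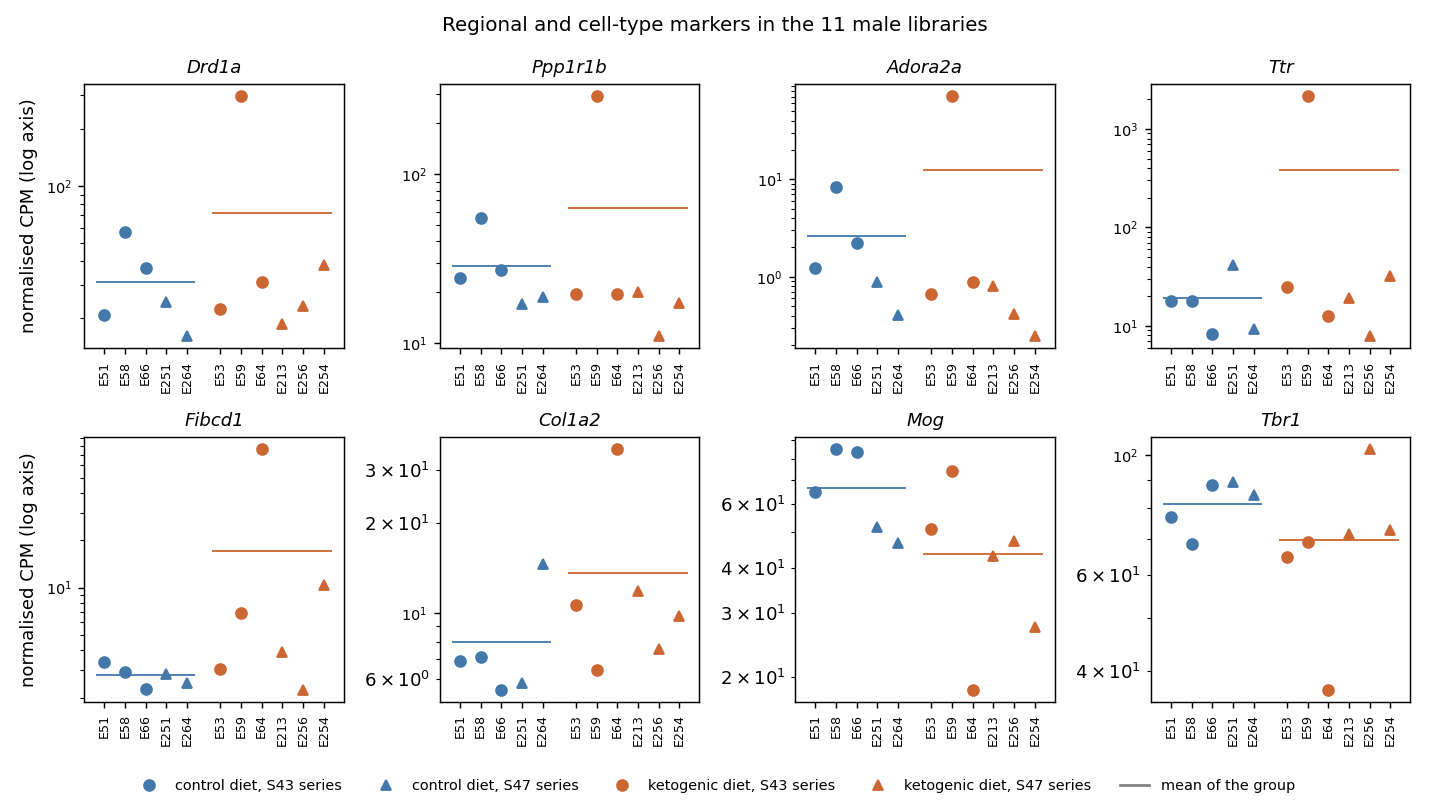
Levels of 8 marker genes in the 11 male libraries in normalised CPM on log axes, with colour for diet, shape for library series and a line at each group mean. E59 is the highest for Drd1a, Ppp1r1b, Adora2a and Ttr, with E58 second for the first 3, E64 is the highest for Fibcd1 (E254 second) and Col1a2 and the lowest for Tbr1, and E64 and E254 are the lowest for Mog.

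Cortical layer and interneuron lists were near 0 as a whole and mixed within. Of 16 upper-layer genes, 5 were higher and 11 lower (median -0.039). At an unadjusted p under 0.05 were 6 of them (37.5%, against 4.5% of all genes), 4 higher and 2 lower. Otof, otoferlin, was at 11.8, 6.52, 2.83, 7.91 and 10.6 normalised CPM in CD males E51, E58, E66, E251 and E264 and at 14.2 to 30.7 in KD males with a median of 15.8. All KD males were above all CD males, with E66 the lowest and E64 the highest, and the log2 fold change was 1.22 ± 0.32. Calb1, the calcium buffer calbindin, was at 122 to 165 in CD males and 139 to 301 in KD males (0.55 ± 0.18), highest in E254 and E64. Deep-layer genes were higher in 13 of 20 (median 0.072), and Nr4a2, an orphan nuclear receptor, was at 8.35 to 75.6 in CD and 29.7 to 81.1 in KD males (0.96 ± 0.39). Its difference was 1.66 within S43, where the controls were at 31.9 or less, and 0.15 within S47.

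Interneuron genes were higher in 15 of 24 (median 0.055). Nos1, the neuronal nitric oxide synthase, was at 10.3, 6.55, 6.29, 12.1 and 11.4 normalised CPM in CD males E51, E58, E66, E251 and E264, and at 12.5 to 49.3 in KD males with a median of 18.0. No KD male overlapped a control, and the log2 fold change of 1.28 ± 0.36 was 0.83 without E64, the highest library. Reln, the secreted glycoprotein reelin, was at 101 to 189.5 in CD males, and at 442 in E254 and 405 in E64 against 141 to 225 in the other KD males (0.94 ± 0.30). Calb2, calretinin, was at 36.6 in E64 and 28.6 in E213 (1.20 ± 0.50). It was at 5.06 to 9.12 in CD males and at 3.57 to 11.2 in the other KD males, with E59 the lowest library. Cck, cholecystokinin, was lower on KD (-0.22 ± 0.09). Gad1, the GABA-synthesising enzyme, was at 489.6 to 607 in CD males, and at 382 in E64, 394 in E213, 407 in E254 and 454 in E53, all below the controls, with 490.0 in E256 and 687 in E59. Gad2 and Slc32a1, also interneuron markers, did not set these same KD males apart. Gad2 was at 149.7 to 200.6 in CD males, with E64 (143.9) below that range and E53, E213 and E254 inside it. Slc32a1 was at 11.2 to 25.6 in CD males, with E254 (7.47) below that range and E53, E64 and E213 inside it. The olfactory list held Synpr, the vesicle protein synaptoporin, with 115 to 154 in CD males and 126 to 285 in KD males (0.67 ± 0.17), and Cdhr1, a cadherin-related protein (1.55 ± 0.47). For Synpr only E213 of the KD males lay among the controls.

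Receptors and channels differed in both directions. Of 30 monoamine and acetylcholine receptor genes 7 were at an unadjusted p under 0.05 (23.3%, against 4.5% of all genes), 3 higher and 4 lower. Chrm3, a muscarinic receptor, was at 92.9, 96.9, 102, 75.7 and 70.5 normalised CPM in CD males E51, E58, E66, E251 and E264, and at 42.5 to 84.2 in KD males with a median of 65.2. Only E53 of the KD males lay inside the CD range, E64 was the lowest, and the log2 fold change was -0.44 ± 0.15. Adra1a, an adrenergic receptor, was at 15.2 to 24.4 in CD and 12.5 to 17 in KD males (-0.38 ± 0.13). Chrm5 was higher (2.90 ± 0.90), at 6.91 in E64 and at or below 0.510 in every control.

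Of 44 potassium channel genes 28 were lower (median -0.079), with 5 lower and 1 higher at an unadjusted p under 0.05 (13.6%, against 4.5% of all genes). The median stayed below 0 in every fit without 1 library and within both series (-0.104 and -0.066). Kcna6 (-0.22 ± 0.08), a voltage-gated channel, was lower along with Kcnj3. Kcnn3, a calcium-activated channel, was the higher one, at 10.1 to 18.5 normalised CPM in CD males and 16.7 to 35.9 in KD males (0.78 ± 0.23), with E254, E64 and E59 the 3 highest. E59 was the highest library for 13 of the 44 and E64 the lowest for 15. The metabotropic glutamate receptor Grm5 (0.37 ± 0.15) was higher, as was the GABA receptor subunit Gabra2 (0.40 ± 0.16) and the vesicle priming factor Unc13c (0.75 ± 0.31). Glutamate receptor and transporter genes as a whole were higher in 19 of 30 (median 0.038), presynaptic genes lower in 21 of 33 (-0.031) and postsynaptic genes higher in 19 of 26 (0.073).

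The cAMP, PKA and CREB list, which bears on the pathway the study examined, was split 24 and 18 with a median of 0.013. Adcy2, an adenylyl cyclase, was lower (-0.25 ± 0.10), and the kinase genes Mapk3 (ERK1, 0.59 ± 0.26) and Rps6ka2 (0.29 ± 0.13) were higher. Mapk3 was at 129 normalised CPM in E64 and at 31.0 to 66.1 in the other 10 libraries, and its log2 fold change was 0.30 without E64. The CREB gene Creb1 was at 137 to 192 in CD males and 125 to 209.9 in KD males, with no shift between the ranges. Drd1a, the dopamine D1 receptor, was at 299 in E59 and at 18.6 to 38.5 in the other KD males. CD males were at 16.1 to 57.4, with E58 the highest, so without E59 the KD range lay inside that of the controls.

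Immediate early genes, which neurons transcribe within minutes of activity, differed among animals rather than between diets. Of 30 tested, 15 were higher and 15 lower (median 0.008), and KD male E213 was the highest library for 16. Arc, a cytoskeletal protein of active dendrites, was at 95.7, 40.3, 47.6, 68.2 and 85.7 normalised CPM in CD males E51, E58, E66, E251 and E264, and at 219 in E213 and 20.8 to 65.7 in the other KD males. Egr2, a zinc finger transcription factor, was at 24.9 in E213 and 1.73 to 12.7 in the other 10 libraries. Dusp1, a MAP kinase phosphatase, was at 23.5 in E213 and 22.7 in CD male E264, and at 6.58 to 11.7 in the rest. The antiproliferative gene Btg2 was led by E264 (29.6) and E213 (27.5). E213 and E264 thus headed Dusp1 and Btg2, while for Arc and Egr2 E213 stood alone. Jun, which was at 49.8 in E64 against at most 22.1 elsewhere (0.56 ± 0.26), and Nrn1, neuritin (-0.22 ± 0.10), followed another order.

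These genes are read out through short promoter elements, and the windows of the 3 in which a searched element was found are shown. The 250 bases before each annotated start were searched on both strands for the palindromic cAMP response element TGACGTCA and for the CArG box that serum response factor binds. Of the 22 immediate early genes with a window, 2 held the response element (9.09%) and 1 a CArG box (4.55%), against 1.77% and 1.62% of 27025 genes. The sequences are RefSeq's on GRCm38.p6, 5′ to 3′ on the gene's strand, with the element in capitals. Btg2 lies on the minus strand (chr1:134079156-134079405), Dusp1 on the minus strand (chr17:26508473-26508722) and Egr2 on the plus strand (chr10:67537620-67537869, the window of 1 of its annotated starts). A match is a string of letters and not a measured site.
Btg2: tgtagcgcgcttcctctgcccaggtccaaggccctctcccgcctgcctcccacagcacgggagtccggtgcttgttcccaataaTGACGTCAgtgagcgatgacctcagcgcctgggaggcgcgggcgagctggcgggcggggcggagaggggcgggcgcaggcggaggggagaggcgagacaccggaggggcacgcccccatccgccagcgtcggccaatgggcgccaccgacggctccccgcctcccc
Dusp1: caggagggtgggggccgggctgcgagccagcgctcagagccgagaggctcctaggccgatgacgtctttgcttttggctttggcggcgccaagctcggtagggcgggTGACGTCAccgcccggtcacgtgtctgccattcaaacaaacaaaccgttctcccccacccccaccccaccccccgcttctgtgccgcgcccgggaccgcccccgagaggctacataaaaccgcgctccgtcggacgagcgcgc
Egr2: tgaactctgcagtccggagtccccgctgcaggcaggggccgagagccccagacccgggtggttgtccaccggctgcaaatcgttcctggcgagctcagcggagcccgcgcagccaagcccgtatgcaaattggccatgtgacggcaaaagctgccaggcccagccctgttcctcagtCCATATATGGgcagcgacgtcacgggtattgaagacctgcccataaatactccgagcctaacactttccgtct

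Genes tied to Alzheimer's disease showed no common direction. Amyloid precursor processing and tau genes were split 14 and 9 (median 0.015), and risk locus genes 13 and 13. Sorl1, the sorting receptor of the amyloid precursor protein, was at 386, 395, 421, 322 and 370.4 normalised CPM in CD males E51, E58, E66, E251 and E264, and at 259 to 363 in KD males with a median of 299.8. Only E251 of the controls lay inside the KD range, and the log2 fold change was -0.28 ± 0.11. Ace, the angiotensin-converting enzyme, was at 49.4 in E59 (0.79 ± 0.36), and its difference was 1.45 within S43 and -0.048 within S47. Apolipoprotein and lipid transport genes were higher in 15 of 22 (median 0.105), among them Apoc1 (1.04 ± 0.42), which lies next to the knocked-in locus, at 0.211 to 0.829 in CD and 0.741 to 2.85 in KD males. Mouse Apoe itself was at 1.40 to 3.25 CPM in all males, scaled over all 20 libraries.

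Nuclear receptor genes were split 15 and 15, with 4 higher at an unadjusted p under 0.05 (13.3%, against 4.5% of all genes). Esr1, the oestrogen receptor, was at 1.27 to 1.95 normalised CPM in CD males, and at 8.87 in E64 and 5.80 in E254 against 1.20 to 2.54 in the other KD males (1.31 ± 0.45). Nr2f2, which marks interneurons of caudal origin and some limbic neurons, was at 60.7 in E64, 39.8 in E254 and 7.13 to 21.2 in the other 9 (1.28 ± 0.47). E64 and E254 were again the top pair for both. Zbtb16, a glucocorticoid-responsive factor, was lower (-0.48 ± 0.20), and glucocorticoid response genes as a list were lower in 10 of 17. Circadian clock genes (10 higher, 13 lower) and histone acetylation genes (12 and 15) had no member at an unadjusted p under 0.05.

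E64 also had the extreme scores of the lists read for RNA composition, -1.38 for noncoding RNAs and 1.30 for histone genes. Whether these lists follow RNA composition or cell type was not tested. Nuclear and neuronal long noncoding RNAs were lower in 12 of 15 (median -0.106), and Malat1 was at 2869 normalised CPM in E64, 3421 in CD male E66 and 4766 to 14399.5 in the other 9. Replication-dependent histone genes, whose transcripts lack a poly(A) tail, were higher in 10 of 11 (median 0.32), with Hist3h2a at 34.4 in E64 and 20.5 to 27.2 elsewhere (0.27 ± 0.11). E59 was the highest library for 5 of the 11 histone genes and E64 for 3, and E59 had the second most extreme score in both lists (-0.93 and 0.76). The part of RNA composition in the results above was not tested.

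Whether the diet effect in males differed from that in females was tested as an interaction in a fit of all 20 libraries. It gave 0 genes at the thresholds (0 of 15660 by edgeR's quasi-likelihood test), 335 at an unadjusted p under 0.05 (2.14%), and 1 gene each by the likelihood ratio test and DESeq2. The smallest adjusted p was 0.116, for Fcgr4, an activating Fc receptor of myeloid cells. Fcgr4 was at 0.402 to 0.634 normalised CPM in CD males and at 0 to 0.267 in KD males, too low to be tested in the fit of males alone. The next genes by p were Gm16576 and Hspa1b, an inducible heat shock protein, with male minus female differences in log2 fold change of -1.71 and 1.1. Gm16576 was at 0.679 to 0.957 in CD males and 0.318 to 0.602 in KD males.

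Of the 163 named genes that the annotation placed, 44 share exon bases with another gene, among them Dusp1, Jun, Nos1, Reln, Nr2f2, Sorl1, Sulf2, Kcnj3, Ptpn3, C1s, Usp18 and Spp1. Which strand was counted is not given in the sources used here, so reads of such a gene and of its partner cannot be told apart and these values are uncertain.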

How the data were processed

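Per the labels and the study's methods, ribosome-depleted, strand-specific total RNA libraries of frozen cortex were sequenced as read pairs, and the authors used STAR for alignment (mm10) and for the counting per gene that it builds in after HTSeq. The deposited values are raw counts for 23413 gene rows per library. The annotation version and the strand setting of the counting are not given in the sources used here. Counts of all 11 male libraries were filtered with filterByExpr of edgeR 4.0.16 (R 4.3.3), scaled by the upper quartile and fitted with robust quasi-likelihood models holding library series and diet (15260 genes, 8 residual degrees of freedom). What the series number marks is not stated in the labels. Genes were called at an FDR of at most 0.1 and at least 1.5-fold. The fit of males was also run on simulated counts with planted changes, which held no series effect and no library set apart. Its outcome is not given here. The interaction with sex used all 20 libraries. Fold changes are on the log2 scale with edgeR's default prior count, and the log2 CPM behind scores and distances used a prior count of 2.

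The authors' RUVg factors and control genes are not stated, so that step was run only as an alternative, with 1 or 2 factors and all but 5000 genes as controls. DESeq2 1.42.0 and the other settings are compared in the closing section. Replicates are single mice of 1 knock-in line. Replicate libraries of a group differed by more than sampling noise (chi-square per degree of freedom 7.252 to 115.2), so each was counted. The comparison, the named genes and the lists were chosen with earlier results of these data known.

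Named genes were the 12 of smallest p in each direction, up to 3 of smallest p and the most abundant member of each list, the 3 genes (mean of at least 5 CPM) that set each library farthest from the others, genes of label checks, genes the study names, and the 5 of smallest p for the interaction. Oxct1, Bdh1, Dcn, Nnat, Gad1, Gbp2, Gpr101 and the immediate early genes with printed promoters were added for their role or after their values were seen. Some genes that this rule names are not reported here. Gene places are from GENCODE M21 on GRCm38, and promoter windows from RefSeq on GRCm38.p6.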

Additional observations from a re-analysis of the deposited data

Results flagged for a closer look

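Each library was compared with the others of its diet by Dixon's ratio, the gap to its nearest neighbour divided by the range of the group. It was taken in each diet for the total count, 49 list scores and 51 genes, 202 groups of libraries in all, and 22 passed the 95% critical value for their size. About 1 in 20 groups, or 10.1, passes with no library set apart. Several of the 51 genes were chosen because 1 library stood away from the rest.

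KD male E59 stood apart in 11 of these. It was high for the striatal score (0.898) and the choroid plexus score (0.849), and for the striatal genes Drd1a (0.739), Ppp1r1b (0.819), Adora2a (0.819), Rgs9 (0.935), Sh3rf2 (0.781) and Lrrc10b (0.655). It was also high for the choline transporter Slc5a7 (0.865) and the choroid plexus genes Ttr (0.753) and Clic6 (0.788). Rgs9, the regulator of striatal dopamine signalling, was at 233 normalised CPM in E59, and Clic6, a chloride channel protein, at 45.9.

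KD male E64 was high for the astrocyte score (0.717), for Otof (0.659) and for the collagen genes Col1a1 (0.762) and Col1a2 (0.639). KD male E213 was high for the interferon score (0.744) and for Dusp1 (0.726). KD male E53 was high for the ribosomal RNA precursor Rn45s (0.716), at 6998 normalised CPM against at most 2859 in the other male libraries.

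Of the controls, E264 was high for the endothelial and mural score (0.8), Spp1, which encodes osteopontin (0.712), and Col1a2 (0.741). E251 was low for the engulfment score (0.719). Spp1 was at 42.6 normalised CPM in E264 against 12.1 to 17.3 in the other CD males, and KD male E213 was higher still at 148.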

How the results depend on the processing

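No gene passed the thresholds in any fit that left out 1 library (0 to 0), nor under TMM, DESeq2 size factors, other filters, no series term, RUVg or either series alone. The likelihood ratio test gave 10 and DESeq2's Wald test 5. Genes with an unadjusted p under 0.05 numbered 686, with 371 to 978 with 1 library left out, 116 in S47 alone and 1122 with 2 RUVg factors. With both E59 and E64 left out, a setting chosen after seeing the data, they numbered 242. Of the 686 genes, 66.2% were higher on KD, against 56.5% and 53.7% of those reached with 1 and 2 RUVg factors. The interaction gave 1 gene by the likelihood ratio test, 1 by DESeq2 and 0 to 1 with 1 male library left out. Of 1627 values of 78 named genes under the alternatives, 1624 kept their direction. The 3 that reversed were those of S47 alone for Sostdc1 (-0.051), Kl (-0.085) and Ace (-0.048). The cause of these shifts was not tested, and a series alone also has fewer libraries. No scaling moved the median of all genes by as much as 0.1. No paired analysis was possible because the labels number animals, and no CD and KD male share a number. S47 libraries are shallower, and low levels there rest on few counts.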

Other observations

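Some differences followed the library series and not the diet. Kcnq1ot1, a long antisense RNA of an imprinted domain, was at 45.5 to 108 normalised CPM in the 6 male libraries of S43 and at 229 to 482 in the 5 of S47. The noncoding RNA 5031426D15Rik was at 5.26 to 18.2 in S43 and 29.2 to 65.3 in S47. Neither gene's series ranges overlapped. Plin4, a lipid droplet protein, was set apart by CD male E264 at 11.9, and Agt, angiotensinogen, by KD male E64 at 19.9 against at most 6.75 in the other libraries. Lists of cholinergic neuron and blood genes had 4 tested members each and the list of mitochondrial transcripts 0, and none was described.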
